A study of Mus musculus with 12 samples.

Results

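Matricellular proteins are secreted into the extracellular matrix, where they bind cells, growth factors and structural fibres rather than carrying load themselves. The 10 genes described here are Fn1, Sparc, Smoc2, Postn, Tgfbi, Tnc, Nov (also called Ccn3), Fbln2, Ecm1 and Spon1. They were picked by name as matricellular proteins and fibronectin, and all 10 were found among the 17536 genes of the deposited RNA-seq values. RNA came from chondrocytes of the superficial zone (SFZ) and the deep zone (DZ) of 5-day-old C57BL/6 mice (C57BL/6J in the study's methods). There were 3 libraries per zone and genotype and 12 libraries in all. R3-Cntl mice were Runx3 fl/fl, and R3-cKO mice were Runx3 fl/fl littermates that also carried Col2a1-Cre, so both genotypes shared the floxed allele. Col2a1-Cre acts in cells of the chondrocyte lineage, and cells of a preparation that never used the Col2a1 promoter would keep Runx3. After tendon and ligament had been removed, SFZ cells were released from the ends of femur and tibia with trypsin and then collagenase, and DZ cells by further collagenase treatment of the cartilage that was left. By the study's methods such cells were plated on dishes coated with fibronectin, the product of Fn1, and grown as a monolayer in serum. The time in culture before RNA was taken is not given in the sources used here.

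Fibronectin is assembled by cells into fibrils through integrins, and other matrix proteins are laid down on these fibrils. Periostin (Postn) and Tgfbi share fasciclin domains and bind collagen and integrins, and periostin is well known from periosteum, tendon and ligament. Tenascin-C (Tnc) is a large multi-armed glycoprotein of tendon, perichondrium and articular cartilage, and fibulin-2 (Fbln2) connects fibronectin, elastic fibres and basement membrane. Sparc is a collagen-binding glycoprotein of tissues that make much collagen, Smoc2 is its relative, and Nov belongs to the CCN family of cysteine-rich matrix proteins. Ecm1 binds several other matrix proteins, and Spon1, or F-spondin, was described from the floor plate of the neural tube.

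Each value is taken as FPKM, the number of sequenced fragments scaled to transcript length and library depth, which the authors scaled further between libraries. The unit was inferred from the values. The methods of the study name a different processing, with quantile normalization and log2 CPM values, whereas the deposited values are not logged and their sums differ between libraries. Library sums lay between 392241 and 429213 FPKM, and the depth in reads is unknown. Runx3, the gene targeted in these mice, had levels of 10.7, 5.98 and 6.65 FPKM in replicates 1, 2 and 3 of R3-Cntl SFZ, and of 11.8, 9.07 and 3.42 FPKM in those labelled R3-cKO SFZ. R3-Cntl DZ had 12.7, 12.7 and 7.66 FPKM, and cKO-labelled DZ had 15.95, 12.7 and 8.14 FPKM. Runx3 was therefore not lower in cKO-labelled libraries (log2 change -0.04, standard error 0.43, in SFZ and 0.13, standard error 0.28, in DZ), although a value summed over the gene does not show whether the floxed part was present. A pair of other genes, chosen after their values were seen, differed between the labels without overlap. Chosen in this way, they are no test of the labels. In SFZ cells 2.40% of the 11537 genes tested had genotype groups that did not overlap, in either direction. Prg4, which encodes lubricin, had 22.2, 8.38 and 7.13 FPKM in R3-Cntl SFZ and 6.95, 2.47 and 2.13 FPKM in cKO-labelled SFZ (log2 change -1.45, standard error 0.52, limma adjusted p = 1). Alpl, which encodes alkaline phosphatase, had 22.9, 34.6 and 51.4 FPKM in R3-Cntl DZ and 11.9, 8.43 and 11.4 FPKM in cKO-labelled DZ (log2 change -1.63, standard error 0.29, limma adjusted p = 0.999). Genotype directions below refer to the label of a library. The Y-linked gene Ddx3y, chosen after its values were seen, was at or under 0.02 FPKM in R3-cKO replicates 2 and 3 of both zones and at 4.96 FPKM or more in the other 8 libraries. Genotype and the presence of Y-linked transcripts cannot be told apart in replicates 2 and 3, whereas in replicate 1 both genotypes carried them.

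Cartilage genes were checked first, because they define the tissue. All 14 genes of the cartilage matrix and chondrocyte list passed the filter, and their summed level was 17759, 5761 and 10761 FPKM in replicates 1, 2 and 3 of R3-Cntl SFZ and 15307, 8794 and 6832 FPKM for cKO-labelled SFZ. Sums for R3-Cntl DZ were 40586, 25577 and 33375 FPKM, and for cKO-labelled DZ they were 26508, 17571 and 32673 FPKM. Col2a1, the main collagen of cartilage, was the most abundant gene of the list in every library, and no gene of the list was at 0. Cartilage genes were thus abundant in all 12 libraries. In R3-Cntl SFZ replicate 2 and R3-cKO SFZ replicate 3 the sum of tendon and fibroblast markers, 8401 and 11682 FPKM, exceeded that of the cartilage genes. Prg4, a marker of the superficial zone, was at 5.72 FPKM in R3-cKO DZ replicate 1, above the values of R3-cKO SFZ replicates 2 and 3.

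The 10 genes together held between 1.08% and 1.88% of the FPKM of a library, and most of it came from Sparc and Fn1. Sparc ranked between the third and the eighth most abundant gene of all in each library, and Fn1 between the fourth and the nineteenth. These genes accounted for 87% to 95.4% of the summed FPKM of the 10. Smoc2, Tgfbi and Tnc followed with medians over the 12 libraries of 76.7, 127 and 75 FPKM. Ecm1, Nov, Postn and Fbln2 had medians of 45.2, 33.4, 32 and 28.9 FPKM, but these medians fall between a high level in SFZ cells and a low level in DZ cells. Spon1 was the lowest, with values from 0.20 to 1.55 FPKM, and reached 1 FPKM in 2 libraries only, R3-Cntl SFZ replicate 1 and R3-cKO SFZ replicate 1. It failed the filter of at least 1 FPKM in 3 libraries, so 9 of the 10 genes were tested in limma. By exact permutation within genotypes the zones differed for Spon1 (p = 0.025, not adjusted), with means of 0.893 FPKM in SFZ and 0.363 FPKM in DZ cells and ranges that overlapped. The plot of FPKM by library shows the separation of zones for Postn, Nov, Fbln2 and Ecm1 beside the overlap for the other genes.

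**Figure D1:**
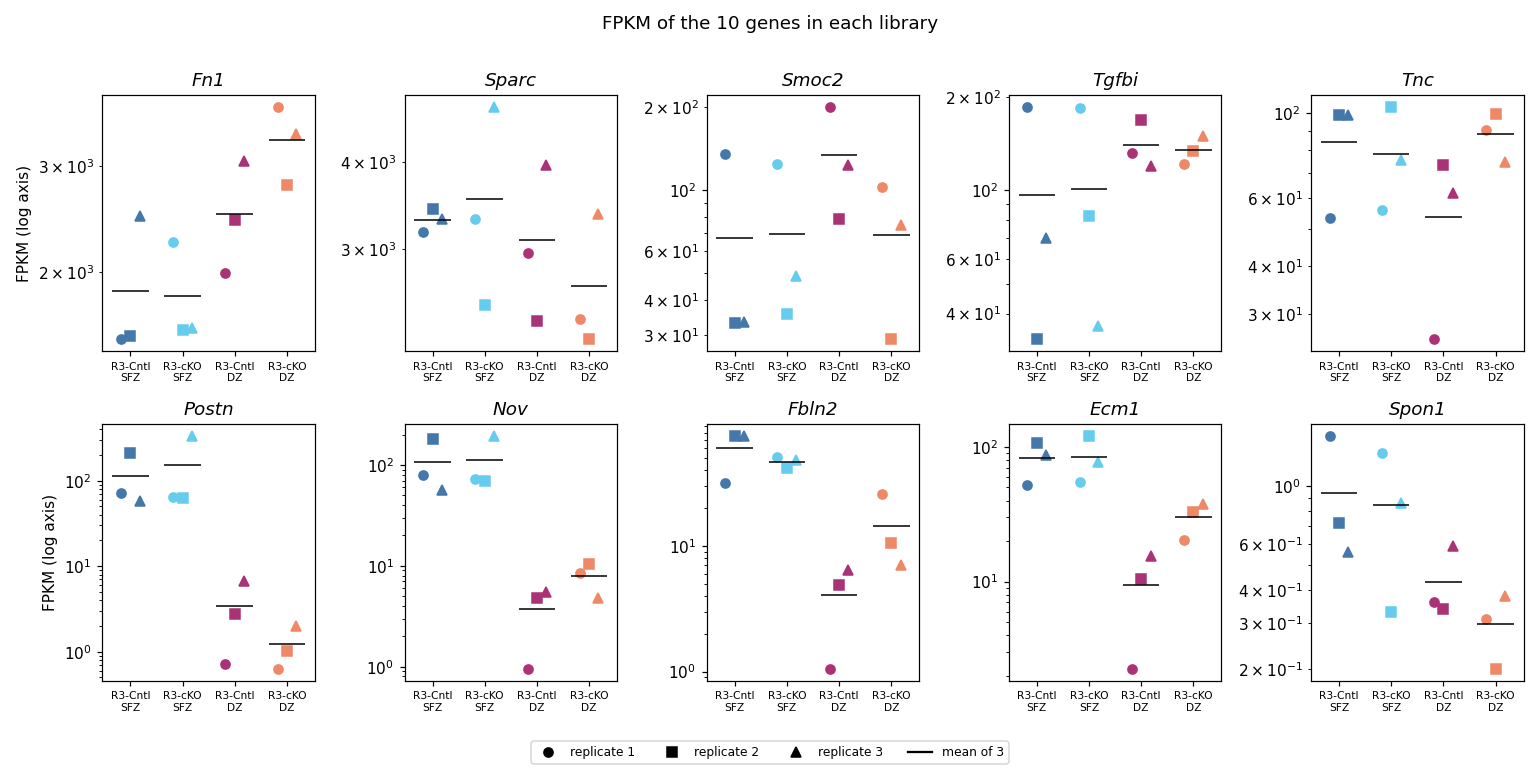
FPKM of each of the 10 genes (vertical axis, logarithmic and scaled separately for each gene) in the 12 libraries, grouped by genotype and zone, with a marker shape for each replicate number and a line at the mean of 3. All 6 SFZ values of Postn, Nov, Fbln2 and Ecm1 lie above all 6 DZ values, from 57.27 against 6.69 FPKM at the nearest for Postn to 31.79 against 26.05 FPKM for Fbln2.

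In the mm9 annotation the 10 genes lie on 9 chromosomes, so they form no cluster. Postn (Entrez gene 50706) spans chr3:54165031-54194961 on the forward strand and Ecm1 (13601) spans chr3:95538070-95543492 on the reverse strand. Nov (18133) lies at chr15:54577257-54585594 and Fbln2 (14115) at chr6:91162449-91222534, both on the forward strand, and Fn1 (14268) at chr1:71632094-71699774 on the reverse strand. Sparc (20692), Smoc2 (64074), Tgfbi (21810), Tnc (21923) and Spon1 (233744) lie on chromosomes 11, 17, 13, 4 and 7. Exons of Fn1 overlap an annotated gene on the opposite strand, Apol7d, and exons of Tnc overlap 8030451A03Rik in the same way. Whether strand was used in counting is not given in the sources used here, so reads of these pairs cannot be told apart. The other 8 genes overlap no annotated gene.

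Promoters are shown for Postn, Ecm1 and Fbln2 because these genes were high in the same zone. The RefSeq promoter windows used here (GRCm38.p6, 250 bases before to 50 after a start) matched 6 of the 10 genes, Postn, Ecm1, Fbln2, Tnc, Sparc and Tgfbi, with 8 windows in all. Fn1, Nov, Smoc2 and Spon1 had no entry. Capitals mark 4 motifs searched on either strand. These were the Runx motif (TGTGGT or else TGCGGT), the TATA box (spelled TATAAA), the AP-1 motif (spelled TGANTCA) and the GC box (spelled GGGCGG). No match overlaps another in the windows printed. The windows are chr3:54359017-54359316 and chr3:54360857-54361156 for Postn (forward strand), chr3:95739520-95739819 for Ecm1 (reverse strand) and chr6:91212514-91212813 for Fbln2 (forward strand).
Postn, upstream window: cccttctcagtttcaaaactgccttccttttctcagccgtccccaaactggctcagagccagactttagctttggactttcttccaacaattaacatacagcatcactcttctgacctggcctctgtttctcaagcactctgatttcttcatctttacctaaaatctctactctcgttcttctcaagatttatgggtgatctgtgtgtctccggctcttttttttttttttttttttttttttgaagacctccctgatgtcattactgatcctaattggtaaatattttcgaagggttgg
Postn, downstream window: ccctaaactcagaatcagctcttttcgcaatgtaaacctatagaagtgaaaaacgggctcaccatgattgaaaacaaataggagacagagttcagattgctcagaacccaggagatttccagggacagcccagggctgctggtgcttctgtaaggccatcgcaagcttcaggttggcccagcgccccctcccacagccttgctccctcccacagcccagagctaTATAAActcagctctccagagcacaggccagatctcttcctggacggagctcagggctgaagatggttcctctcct
Ecm1: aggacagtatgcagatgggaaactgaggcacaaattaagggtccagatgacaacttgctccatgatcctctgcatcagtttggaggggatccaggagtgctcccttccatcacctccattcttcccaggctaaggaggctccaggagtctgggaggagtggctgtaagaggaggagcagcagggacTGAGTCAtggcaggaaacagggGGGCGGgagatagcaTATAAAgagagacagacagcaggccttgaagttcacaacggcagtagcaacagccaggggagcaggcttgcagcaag
Fbln2: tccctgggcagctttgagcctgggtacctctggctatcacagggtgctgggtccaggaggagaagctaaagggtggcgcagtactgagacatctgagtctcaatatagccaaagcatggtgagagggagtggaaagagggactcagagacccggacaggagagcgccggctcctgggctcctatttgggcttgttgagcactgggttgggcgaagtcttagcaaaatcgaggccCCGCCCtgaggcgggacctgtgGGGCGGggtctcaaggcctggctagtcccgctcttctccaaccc
The downstream window of Postn and that of Ecm1 each hold 1 TATAAA, which is found in 13.6% of 32851 promoter windows of this length. Ecm1 also holds 1 TGANTCA and 1 GGGCGG, and Fbln2 holds 2 GGGCGG, found in 7.81% and 35.7% of the windows. The Runx letters, found in 22.4% of all windows, occur in none of these 4 and once in that of Sparc, which says only which letters these windows hold.

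Postn showed the widest range of the 10 genes. Its levels were 72.8, 213 and 57.3 FPKM in replicates 1, 2 and 3 of R3-Cntl SFZ and 63.9, 62.6 and 333 FPKM in cKO-labelled SFZ. R3-Cntl DZ had 0.72, 2.79 and 6.69 FPKM, and cKO-labelled DZ had 0.63, 1.02 and 2 FPKM. Every SFZ value lay above every DZ value, and the ratio of the zone means was 57.9. Over both genotypes the log2 change from SFZ to DZ was -5.21 (standard error 0.52), with a limma adjusted p of 0.000344. Changes are on the log2(FPKM + 1) scale, which understates them for low values such as those of Postn in DZ cells.

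Nov had the same order of zones. Its values were 79.4, 182 and 56.55 FPKM in replicates 1, 2 and 3 of R3-Cntl SFZ and 72.7, 69.2 and 193 FPKM in cKO-labelled SFZ. R3-Cntl DZ had 0.95, 4.76 and 5.44 FPKM, and cKO-labelled DZ had 8.56, 10.3 and 4.76 FPKM. The zones did not overlap, and the log2 change was -4.03 (standard error 0.42, limma adjusted p = 0.000415). R3-Cntl SFZ replicate 2 and R3-cKO SFZ replicate 3 were the highest libraries for both Nov and Postn.

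Fbln2 and Ecm1 were also higher in SFZ cells in all 6 libraries, with smaller differences. Fbln2 had 31.8, 75 and 74.5 FPKM in R3-Cntl SFZ and 50.9, 41.7 and 48 FPKM in cKO-labelled SFZ, and fell to 1.05, 4.88 and 6.38 FPKM in R3-Cntl DZ and to 26.05, 10.5 and 7.05 FPKM in cKO-labelled DZ. The log2 change of Fbln2 was -2.75 with a standard error of 0.46 and a limma adjusted p of 0.003. Ecm1 had 52.5, 107 and 87.2 FPKM in R3-Cntl SFZ and 54.7, 120 and 77 FPKM in cKO-labelled SFZ, against 2.25, 10.5 and 15.55 FPKM in R3-Cntl DZ and 20.3, 32.7 and 37.8 FPKM in cKO-labelled DZ. Its log2 change was -2.32 (standard error 0.46, limma adjusted p = 0.0061). R3-Cntl DZ replicate 1 was the lowest library for Nov, Fbln2 and Ecm1.

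Of the 9 genes tested, 4 fell from SFZ to DZ at an adjusted p under 0.05, and 18.9% of the 11765 genes tested did so. The same 4 genes had zones that did not overlap, which was true in this direction of 9.71% of the genes tested. Fn1 was the only member called higher in DZ cells, against 4.30% of all genes. Each of Postn, Nov, Fbln2 and Ecm1 reached p = 0.005 in an exact two-sided permutation test within genotypes, the smallest value its 400 arrangements allow. The split of all calls, 506 higher and 2219 lower in DZ cells, depended on scaling, with 1238 higher and 864 lower after quantile normalization and 1053 higher and 1088 lower with median-of-ratios size factors. These moved the median log2 change of all genes from -0.14 to 0.04 and 0.00, a shift that is small beside the changes of these 4 genes. SFZ and DZ cells may come from the same mice, which this comparison does not model.

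Fn1 was higher in DZ cells. Its levels were 1549, 1569 and 2476 FPKM in replicates 1, 2 and 3 of R3-Cntl SFZ and 2248, 1607 and 1621 FPKM in cKO-labelled SFZ. R3-Cntl DZ had 1997, 2438 and 3064 FPKM, and cKO-labelled DZ had 3765, 2791 and 3388 FPKM. The ranges of the zones overlapped over both genotypes. In R3-cKO, where replicate numbers were taken as paired, the DZ value was 1.67, 1.74 and 2.09 times the SFZ value of the same number. The log2 change was 0.65 with a standard error of 0.18. Its limma adjusted p was 0.0237, and exact permutation gave p = 0.015. The call was lost after quantile normalization (0.50, adjusted p = 0.148) and without a filter on low values (adjusted p = 0.111), and adjusted p values over all alternatives ran from 0.00768 to 0.148. It was also lost without R3-Cntl SFZ replicate 2 (0.0588), R3-cKO SFZ replicate 3 (0.051), R3-cKO DZ replicate 1 (0.0546) or R3-cKO DZ replicate 3 (0.0513), and without the SFZ libraries of replicate 1 of both genotypes (0.0533), an alternative chosen after seeing the data.

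Sparc, Tnc, Smoc2 and Tgfbi did not pass the test between zones. Sparc lay between 2228 and 4801 FPKM over the 12 libraries, with a log2 change of -0.26 (standard error 0.19). It passed only after quantile normalization (-0.45, limma adjusted p = 0.0178), and the change was -0.09 with median-of-ratios factors. With single libraries left out it ran from -0.36 (without R3-Cntl DZ replicate 3) to -0.13 (without R3-cKO SFZ replicate 3). Sparc did not rise with Fn1, and Fn1 reached or exceeded Sparc in 4 of 6 DZ libraries, with ratios from 1 to 1.58, and was lower than Sparc in all 6 SFZ libraries, where the ratio of Fn1 to Sparc lay between 0.338 and 0.746. Tnc had a log2 change of -0.25 (standard error 0.29), Smoc2 of 0.61 (0.49) and Tgfbi of 0.78 (0.42). With single libraries left out these changes ran from -0.4 to 0 for Tnc, where R3-Cntl DZ replicate 1 gave the 0. They ran from 0.4 to 0.91 for Smoc2 and from 0.51 to 1.06 for Tgfbi. Tgfbi was uneven within SFZ cells, with 186, 33 and 70 FPKM for R3-Cntl and 184, 82.7 and 36.4 FPKM for R3-cKO, and stayed between 119.65 and 167.9 FPKM in DZ cells. Tgfbi was called (1.39, adjusted p = 0.00929) in the alternative without the SFZ libraries of replicate 1, which was chosen after seeing the data and removes its highest SFZ values, so this is no test of the rise.

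**Figure D2:**
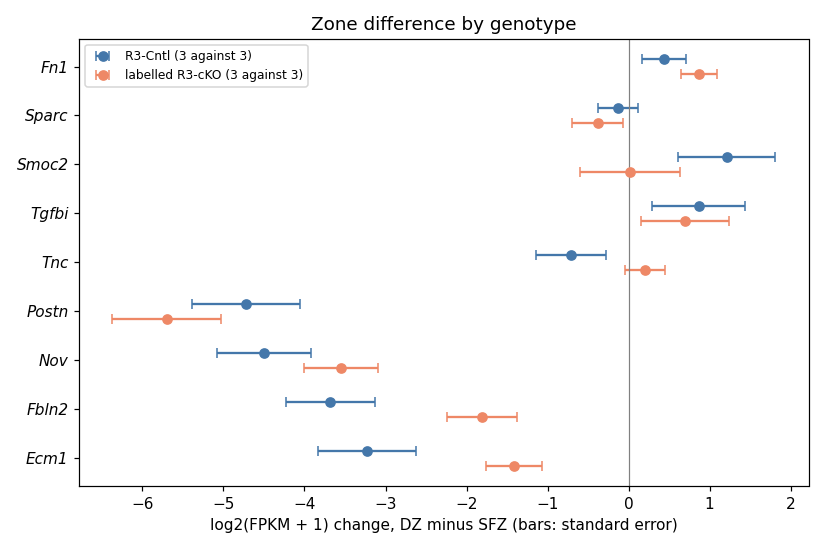
Change in log2(FPKM + 1) from SFZ to DZ (horizontal axis) for the 9 genes tested, fitted separately in R3-Cntl and in the libraries labelled R3-cKO, with bars for the standard error and 3 libraries in each arm. Postn, Nov, Fbln2 and Ecm1 lie below 0 in both genotypes, from -1.41 for Ecm1 in R3-cKO to -5.70 for Postn in R3-cKO.

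Within R3-Cntl alone, Postn, Nov and Fbln2 fell from SFZ to DZ with log2 changes of -4.72, -4.51 and -3.68 (standard errors 0.66, 0.58 and 0.55), each with a limma adjusted p of 0.048. This made 3 of 9 members, against 1.09% of 11336 genes called lower and 0.150% called higher. Ecm1 changed by -3.23 (standard error 0.60) with an adjusted p of 0.0566. These adjusted p values lay close to the threshold. Postn, Nov and Fbln2 were not called after quantile normalization, with median-of-ratios factors, with no filter or among genes averaging 10 FPKM or more, with adjusted p between 0.0582 and 0.0801. With a pseudocount of 0.1 or 5 only Nov passed. Without R3-Cntl SFZ replicate 2 or 3, or without R3-Cntl DZ replicate 1, 2 or 3, the counts fell to 0 members, with adjusted p between 0.0684 and 0.228 for Postn, and without R3-Cntl SFZ replicate 1 they rose to 4 members.

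Within the libraries labelled R3-cKO, 0 of 9 members and 0.0176% of 11336 genes passed an adjusted p of 0.05 in limma. At an unadjusted p under 0.05 the numbers were 5 members and 1602 genes, and with single libraries left out 5 to 6 members and 885 genes (without R3-cKO SFZ replicate 3) to 2193 genes (without R3-cKO SFZ replicate 2). The log2 change was -5.70 for Postn (adjusted p = 0.0736, standard error 0.67), -3.55 for Nov (adjusted p = 0.0786, 0.46), -1.81 for Fbln2 (0.43) and -1.41 for Ecm1 (0.35). SFZ and DZ libraries of the same number deviated together in this genotype, and with the number as a block the limma adjusted p was 0.0284 for Postn, 0.0468 for Nov and 0.0412 for Ecm1. With the block 2.51% of all genes were called lower in DZ cells, and 3 of 9 members were. Exact permutation with 3 libraries per group cannot give a two-sided p under 0.1, and these 4 genes had p = 0.1 in each genotype.

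Markers of other cells differed between the zones beside these genes. The tendon and fibroblast list, which includes the collagens of fibrous tissue, had 13 of 15 tested genes lower and 0 higher in DZ cells, with a median log2 change of -2.34 against -0.14 for all genes. Its summed level was 4587, 8401 and 4934 FPKM in replicates 1, 2 and 3 of R3-Cntl SFZ and 4759, 4195 and 11682 FPKM in cKO-labelled SFZ. R3-Cntl DZ had 671, 1102 and 3114 FPKM, and cKO-labelled DZ had 642, 971 and 2346 FPKM. The highest sums were those of R3-Cntl SFZ replicate 2 and R3-cKO SFZ replicate 3, the libraries in which Postn and Nov were highest. Col1a1, the main collagen of bone and tendon, was the most abundant gene of the list in all 6 SFZ libraries. Thbs4, Tnmd, Col1a1 and Cd34 had the largest changes of the list, at -5.36, -4.95, -3.73 and -3.70. Of the genes called lower, Thbs4, Tnmd, Cd34 and Dpt did not reach the filter within DZ cells. They were tested through the zone where they were high. Dcn and Lum, which encode the proteoglycans decorin and lumican, were the tested genes not called lower. Their changes were 1.19 (limma adjusted p = 0.0507) and 0.05, and they are named after their values were seen. Dcn passed with median-of-ratios factors (1.35, adjusted p = 0.0415) and was the most abundant gene of the list in 3 DZ libraries. Markers of the list at 0 in DZ libraries were Tnmd in 2, Thbs4 in 1, Dpt in 1 and Pi16 in 2 libraries. The part of such cells in the zone difference of Postn, Nov, Fbln2 and Ecm1 was not tested, and in RNA from whole preparations fewer cells of a type and less RNA per cell cannot be told apart.

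**Figure D3:**
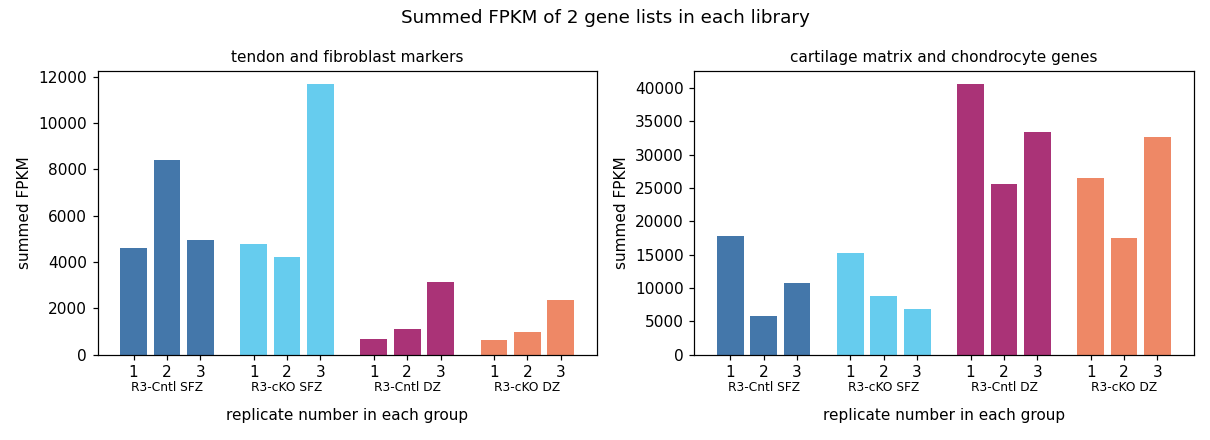
Summed FPKM (vertical axes, from 0) of the 16 tendon and fibroblast markers and of the 14 cartilage matrix and chondrocyte genes in each of the 12 libraries, with bars ordered by replicate number within group. The first list reaches 11682 FPKM in R3-cKO SFZ replicate 3 and stays at or under 3114 FPKM in DZ cells, whereas the second is at its highest, 40586 FPKM, in R3-Cntl DZ replicate 1.

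Cartilage genes went the other way, with 12 of 14 higher and 0 lower in DZ cells and a median log2 change of 1.42. After quantile normalization 11 were called higher, and with median-of-ratios factors 13. Col2a1, the most abundant of them, changed by 1.57 (limma adjusted p = 0.00531), but by 0.77 after quantile normalization (adjusted p = 0.159). Matn1, Matn3 and Acan, which encode matrilins and aggrecan, had the largest changes, at 2.22, 2.12 and 2.11. All 10 macrophage markers tested were called lower in DZ cells, against 3 after quantile normalization and 6 with median-of-ratios factors. Only Cd68 and Lyz2 of them reached the filter within DZ cells, so the others were tested through the zone where they were high. The macrophage list summed to 200, 169 and 7.99 FPKM for R3-Cntl SFZ and to 168, 16.5 and 79.7 FPKM for cKO-labelled SFZ. Its sum lay between 3.65 and 27 FPKM in DZ cells, with Lyz2 the most abundant gene in every library. Ptprc, Adgre1, C1qa, C1qb, C1qc and Tyrobp were at 0 in R3-cKO DZ replicate 3. Ptprc and C1qc were also at 0 in R3-cKO DZ replicate 2, and Tyrobp in R3-cKO DZ replicate 1. Among SFZ libraries, Ptprc was at 0 in R3-Cntl SFZ replicate 3. Of the superficial zone markers 2 of 6 were lower in DZ cells, Sfrp2 (-5.79) and Creb5 (-1), while Prg4 did not pass (-1.32, limma adjusted p = 0.0576) except within R3-Cntl (-2.36, adjusted p = 0.0485). Creb5 did not reach the filter within DZ cells, so it was tested through SFZ cells, where it was higher. Gdf5 of the same list changed by 0.89 and passed after quantile normalization (adjusted p = 0.0284) and with median-of-ratios factors (0.0389). The endothelial sum was at most 6.54 FPKM and the keratinocyte sum at most 3.04 FPKM in any library, and 0 endothelial genes reached the filter. Of the pericyte and smooth muscle markers 1 of 4 tested was lower in DZ cells (Notch3, -0.70, with an adjusted p of 0.0933 after quantile normalization). Notch3 also failed the filter within DZ cells and was tested through SFZ cells. Cspg4 of that list changed by 0.88 and passed after quantile normalization (adjusted p = 0.0488) and with median-of-ratios factors (0.0368). Of the osteoblast markers 1 of 4 was lower (Bglap, -2.26), and of the skeletal muscle and keratinocyte markers 0 of 4 and 0 of 1. The skeletal muscle sum was 125 FPKM in R3-Cntl SFZ replicate 2, with Mylpf the most abundant gene at 40.23 FPKM, and at most 21.6 FPKM in the other 11 libraries, and its part in the values of this library was not tested.

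The genes whose profiles over the 12 libraries lay nearest to the members with the widest ranges were found by the root mean square difference of centred log2(FPKM + 1) values. For Postn they were Tnmd, Ptn and Thbs4, at 0.54, 0.55 and 0.55, where the median over 11764 genes was 2.70. For Nov they were Kctd12, Myoc and Thy1, at 0.48, 0.52 and 0.60 with a median of 2.09. For Ecm1 they were Ly6a, Tmsb4x and Lgals9, at 0.38, 0.43 and 0.44 with a median of 1.42. Tnmd, Thbs4 and Thy1 are also in the tendon and fibroblast list.

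Other genes of the same families showed both directions. Of 22 matricellular relatives 17 were tested between zones, 7 were lower and 1 was higher in DZ cells, with a median log2 change of -0.85. Among all genes tested, 18.9% were called lower and 4.30% higher, with a median of -0.14. Ecm2, Tnn and Fstl1, a relative of Sparc, were lower by log2 changes of -1.82, -1.63 and -1.62, as was Fbln5, a fibulin of elastic fibres, at -1.51. Of the genes called lower, Tnn, Tnxb and Spon2 did not reach the filter within DZ cells. They were thus tested through the zone where they were high, and Tnxb and Spon2 are named after their values were seen. Ctgf, a relative of Nov named here after its values were seen, was higher at 1.22 (standard error 0.23, limma adjusted p = 0.00505), so that Nov and Ctgf differed in opposite directions between zones.

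Of 14 integrin and syndecan receptors 12 were tested, 3 were lower and 1 was higher in DZ cells, with a median log2 change of -0.36. These counts lay close to the shares of all genes, 18.9% called lower and 4.30% higher, with a median of -0.14. Sdc4, a syndecan that binds fibronectin, changed by 0.54 and passed under all 3 scalings. Itga9, a subunit of a receptor for tenascin-C, changed by -0.68, Sdc1 by -0.60 and Itgb1, a subunit of fibronectin receptors named after its values were seen, by -0.51. These calls depended on scaling, as adjusted p after quantile normalization was 0.0501 for Itga9 and 0.0517 for Itgb1, and with median-of-ratios factors 0.0592 for Sdc1 and 0.128 for Itgb1. Of 12 processing and crosslinking enzymes 10 were tested, 2 were lower and 3 were higher, with a median log2 change of 0.79, beside the same shares of all genes. The lysyl oxidase relatives Loxl1 and Loxl2, which crosslink collagen and elastin, changed by -1.54 and 1.53, in opposite directions. Pcolce, an enhancer of collagen processing, changed by -1.22 and did not pass after quantile normalization (adjusted p = 0.0554) or with median-of-ratios factors (0.071). Tgm2, a transglutaminase that crosslinks fibronectin, and Loxl3 were also higher, at 1.17 and 1.08, and are named after their values were seen.

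Genotypes were then compared within DZ cells, where no member passed the test. Of the 9 members tested, 5 had positive and 4 had negative log2 changes from R3-Cntl to the cKO label, beside 6910 positive changes among all 11091 genes tested. Ecm1, given above, was lower in all 3 R3-Cntl DZ libraries (2.25 to 15.55 FPKM) than in any of the cKO-labelled ones (20.31 to 37.83 FPKM). The groups did not overlap, and within replicate numbers the R3-cKO value was 9.03, 3.12 and 2.43 times the R3-Cntl value. The log2 change was 1.83 (standard error 0.60, limma adjusted p = 0.999). Fbln2 did not overlap either, with 6.38 FPKM as the highest R3-Cntl and 7.05 FPKM as the lowest cKO-labelled value and a log2 change of 1.60 (standard error 0.61, adjusted p = 0.999). Its ratios within replicate numbers were 24.8, 2.15 and 1.11, so most of the difference lay in replicate 1.

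Tnc had 25.7, 73.2 and 61.8 FPKM in R3-Cntl DZ and 90.2, 99.7 and 74.6 FPKM in cKO-labelled DZ, again without overlap but with 73.2 and 74.6 FPKM side by side. Its log2 change was 0.83 (standard error 0.38). R3-Cntl DZ replicate 1 was the lowest DZ library for Tnc, Ecm1, Fbln2 and Nov, and without it their log2 changes were 0.37, 1.14, 1.04 and 0.49. Smoc2 went the other way, from 200, 78.5 and 123 FPKM (R3-Cntl) to 103, 28.9 and 75 FPKM (R3-cKO). These groups overlapped, but R3-Cntl exceeded R3-cKO by 1.95, 2.72 and 1.64 times within replicate numbers (log2 change -1.02, standard error 0.53, and -0.50 without R3-cKO DZ replicate 2).

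Of the 9 members 0 passed an adjusted p of 0.05 in limma, as did 0% of the 11091 genes tested, and 2 members (Ecm1 and Fbln2) and 404 genes had an unadjusted p under 0.05. With single libraries left out these numbers ran from 1 to 4 members and from 211 genes (without R3-cKO DZ replicate 2) to 773 genes (without R3-cKO DZ replicate 3). The 3 members without overlap, all higher in the libraries labelled R3-cKO, compare with 5.26% of all genes that were apart in this direction, and each had the smallest exact permutation p possible, 0.1. Nov, Postn, Fn1, Sparc and Tgfbi had log2 changes of 1.04, -0.78, 0.42, -0.21 and -0.04. With single libraries left out Postn ran from -1.33 (without R3-Cntl DZ replicate 1) to -0.25 (without R3-Cntl DZ replicate 3), Fn1 from 0.27 to 0.58 and Sparc from -0.39 to -0.02. Within replicate numbers the R3-cKO value of Postn was 0.875, 0.366 and 0.299 times the R3-Cntl value. These ratios were 1.89, 1.14 and 1.11 for Fn1 and 0.804, 0.94 and 0.852 for Sparc, while Nov and Tgfbi went both ways. DZ libraries of the same number deviated together, and with the number as a block the standard errors of Ecm1 and Smoc2 fell to 0.29 and 0.14, with limma adjusted p of 0.147 and 0.145, while that of Fbln2 rose to 0.68. With this block 1830 genes and 4 members (Ecm1, Smoc2, Postn and Tnc, but not Fbln2) had an unadjusted p under 0.05 and 0 were called. Other lists differed beside these genes in DZ cells. Of 14 matricellular relatives tested 12 had positive log2 changes (median 0.28), and of 10 receptors 8 did (median 0.35). Over all genes 6910 of 11091 changes were positive, with a median of 0.05. Of 10 processing and crosslinking enzymes 4 had positive and 6 negative changes. The largest of these was that of Lox (2.15, standard error 0.70, limma adjusted p = 0.999), and 0 genes of these lists passed the threshold. All 4 osteoblast markers tested had negative log2 changes, with a median of -1.43 and 0 past the threshold, among them Alpl, Ibsp (-1.54) and Bglap (-1.32). Of 14 cartilage genes 13 had negative log2 changes, with a median of -0.62 against 0.05 for all genes and 0 past the threshold, and the sum of the list was lower in the library labelled R3-cKO within every replicate number. Acta2, the most abundant pericyte and smooth muscle marker in 4 of the 6 DZ libraries, changed by 1.76 on the log2 scale with a standard error of 0.48 (limma adjusted p = 0.999), and the sum of that list was 181, 248 and 151 FPKM for R3-Cntl and 407, 493 and 237 FPKM for R3-cKO. Acta2 made up 74.4%, 81.4% and 69% of these R3-cKO sums, and the other tested genes of the list, Cspg4 and Mcam, changed by -0.25 and 0.51. The part of these differences in the values of Ecm1, Fbln2 and Tnc was not tested.

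**Figure D4:**
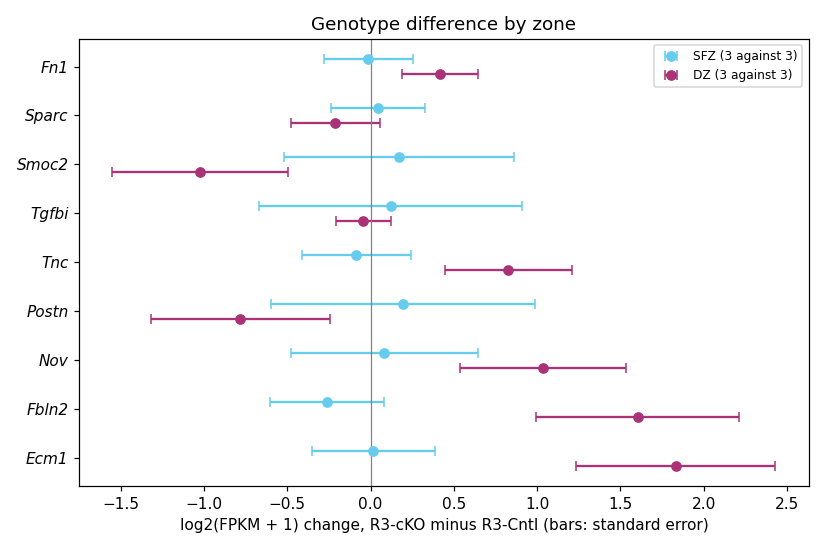
Change in log2(FPKM + 1) from R3-Cntl to the libraries labelled R3-cKO (horizontal axis) for the 9 genes tested, fitted separately in SFZ and DZ cells, with bars for the standard error and 3 libraries in each arm. SFZ changes lie between -0.26 and 0.20, and DZ changes between -1.02 for Smoc2 and 1.83 for Ecm1.

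In SFZ cells the mean differences between genotypes were small beside their errors. Log2 changes of the 9 members ran from -0.26 for Fbln2 (standard error 0.34) to 0.20 for Postn (standard error 0.79), 0 of 9 members had an unadjusted p under 0.05, and 0% of 11537 genes passed an adjusted p of 0.05 in limma, with 34 genes at an unadjusted p under 0.05. That number rested on single libraries, as it was 1204 without R3-cKO SFZ replicate 2, 101 without R3-Cntl SFZ replicate 1 and 12 without R3-cKO SFZ replicate 3, with 0 genes called each time. The change of Fbln2 ran from -0.67 without R3-Cntl SFZ replicate 1, where 1 member had an unadjusted p under 0.05, to -0.06 without R3-Cntl SFZ replicate 2, and that of Postn from -0.60 without R3-cKO SFZ replicate 3 to 0.76 without R3-Cntl SFZ replicate 2. No member had groups that did not overlap, compared with 2.40% of all genes. The standard errors were large for genes that varied within a group, 0.79 for Postn and Tgfbi and 0.69 for Smoc2. The SFZ libraries of replicate 1 stood apart for some members. Smoc2 was at 135 and 124 FPKM in replicate 1 of R3-Cntl and R3-cKO and between 33.1 and 48.9 FPKM in the other 4 SFZ libraries. Ecm1 was lowest in the same libraries, at 52.5 and 54.7 FPKM against 77 to 120 FPKM in the others, as was Tnc.

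An interaction of genotype and zone was fitted over all 12 libraries. It was 1.87 for Fbln2 (standard error 0.77) and 1.82 for Ecm1 (standard error 0.78), both with a limma adjusted p of 0.999, and 0% of 11765 genes passed, with 99 genes and 2 members at an unadjusted p under 0.05. Leaving out single libraries gave 36 genes (without R3-Cntl SFZ replicate 2) to 714 genes (without R3-cKO SFZ replicate 2) and 0 to 2 members at that p, and without R3-Cntl DZ replicate 1 the interaction was 1.31 for Fbln2 and 1.12 for Ecm1. For the other 7 members it lay between -1.19 for Smoc2 and 0.95 for Nov, and with single libraries left out it ran from -1.86 to -0.67 for Smoc2, -1.54 to -0.18 for Postn, 0.41 to 1.43 for Nov, 0.46 to 1.21 for Tnc and -0.81 to 0.42 for Tgfbi. With the replicate number as a block, 949 genes and 4 members had an unadjusted p under 0.05 and 0 were called. The standard errors of Fbln2 and Ecm1 were then 0.41 and 0.42, although numbers were not taken as paired in SFZ cells or in R3-Cntl. A genotype effect that differs between SFZ and DZ cells was thus not shown for any of the 9 genes.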

How the data were processed

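The authors sequenced RNA of SFZ and DZ chondrocytes as paired-end reads, mapped them to mm9 (Bowtie 0.12.2 is named in the submitters' processing notes) and deposited 1 value per gene and library, taken here as FPKM with TMM scaling between libraries. The unit was inferred from the values, and reads, counts and depth were not used here, so errors rest on the spread among libraries alone. All 12 columns were matched to a genotype, zone and replicate. By the study's description the cells came from individual littermate mice, 3 of each genotype.

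Values were fitted as log2(FPKM + 1) in limma 3.58.1 (R 4.3.3) with empirical Bayes moderation and an intensity trend. Genes needed 1 FPKM or more in 3 of the libraries fitted, and p-values were adjusted by Benjamini-Hochberg over all of them. Zone was fitted over both genotypes with genotype as a covariate and in each genotype, genotype in each zone, and their interaction in all libraries. The fits were tested on simulated data. Members and Runx3 were also tested by exact permutation of library labels (two-sided). Positions came from GENCODE vM1 and promoters from RefSeq (Python 3.11.15, pandas 2.3.3, matplotlib 3.10.9).

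Named genes are the 10 members and Runx3, up to 4 genes of each other list with the largest change in the comparison described, marker genes at 0, and the 3 genes nearest in profile to each of the 3 members with the widest range. Other names are marked as chosen after their values were seen. The members and lists were chosen with earlier results of these data known. Lists are described by counts, medians, sums per library, the most abundant gene and genes at 0, and were not tested as sets. Alternatives were pseudocounts of 0.1 and 5, no filter, a mean of at least 10 FPKM, quantile normalization, median-of-ratios size factors, a replicate block and each library left out.

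Whether replicate numbers pair libraries was checked by correlating deviations from group means over 11359 genes. Same-number correlations were 0.65, 0.78 and 0.69 between genotypes in DZ cells and 0.42, 0.78 and 0.65 between zones in R3-cKO, so these were taken as paired, from the data and not from the labels. They were 0.79, -0.09 and -0.42 between genotypes in SFZ cells and 0.58, 0.11 and -0.15 between zones in R3-Cntl, which were not taken as paired. R3-Cntl SFZ replicate 3 correlated with R3-cKO SFZ replicate 2 (0.69) and R3-Cntl DZ replicate 2 (0.58), and R3-Cntl SFZ replicate 2 with R3-cKO SFZ replicate 3 (0.45) and R3-Cntl DZ replicate 3 (0.38). The numbers were used as labelled, so standard errors in SFZ cells are those of unpaired groups.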

Additional observations from a re-analysis of the deposited data

How the results depend on the processing

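Among the values of members under an alternative, 728 kept their direction and side of the threshold, 38 fell short of it, 8 passed it and 33 changed sign. Over both genotypes Postn, Nov, Fbln2 and Ecm1 kept direction and call under all 20 alternatives. Genes called between zones were 2725, and 1162 among genes averaging 10 FPKM or more, where fewer genes are tested, 3965 with a replicate block, and 1624 (without R3-Cntl SFZ replicate 2) to 2899 (without R3-cKO SFZ replicate 2) with single libraries left out, with 4 to 5 members. In R3-Cntl 140 genes and 3 members were called, against 88 and 1 with a pseudocount of 0.1, 29 and 1 with 5, 4 and 0 after quantile normalization, 17 and 0 with median-of-ratios factors, 0 and 0 with no filter, 8 and 0 among genes averaging 10 FPKM or more, 831 and 4 with a block (its numbers were not taken as paired), and 0 to 505 and 0 to 4 with single libraries left out. In R3-cKO 2 genes and 0 members were called, against 1 and 0 with either pseudocount, 7 with no filter, 0 among genes averaging 10 FPKM or more, 352 and 3 with a block, and 0 to 5 and 0 to 1 with single libraries left out (5 and Postn without R3-cKO SFZ replicate 3). Genotype fits called 0 genes under each alternative, as did the interaction, which was not fitted with no filter or for genes averaging 10 FPKM or more.

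The changes of sign were all in values not called. Sparc between zones in R3-Cntl was 0.07 with median-of-ratios factors and -0.32 to 0.05 with single libraries left out, and in R3-cKO Smoc2 ran from -0.36 to 0.54 and Tnc from -0.02 to 0.43. Between genotypes in SFZ cells the same ranges were -0.17 to 0.21 for Fn1, -0.20 to 0.27 for Sparc (-0.06 after quantile normalization), -0.35 to 0.83 for Smoc2, -0.60 to 0.76 for Postn, -0.47 to 0.76 for Tgfbi, -0.38 to 0.13 for Tnc, -0.40 to 0.56 for Nov and -0.28 to 0.28 for Ecm1 (-0.01 without the SFZ libraries of replicate 1 of both genotypes, chosen after seeing the data). In DZ cells Tgfbi ran from -0.15 to 0.09, and its interaction from -0.81 to 0.42. The cause was not tested. The depth of the libraries is unknown, so it sets no stated limit.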
